A study of Mus musculus with 6 samples.

Results

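The genes described here are 33 members of the cell division programme, chosen by name from the 43346 genes of the count table. By role they are 3 genes of G1 and of entry into S phase (Ccnd1, Ccne1 and E2f1), 10 genes of DNA replication (Cdc6, Mcm2 to Mcm7, Pcna, Rrm2 and Tyms), 7 genes that act or peak from S phase to the start of mitosis (Ccna2, Ccnb1, Ccnb2, Cdk1, Foxm1, Top2a and Mki67) and 13 genes of mitosis (Plk1, Aurka, Aurkb, Birc5, Bub1, Bub1b, Cdc20, Ube2c, Cenpe, Kif11, Hmmr, Nusap1 and Prc1). Tk1, Ccne2 and Kif20a were left out of the choice because they overlap more abundant genes. Each of the 33 was in the table under its own symbol, and each passed the filter on low counts.

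RNA was sequenced from mouse livers, 1 library per sample. All mice were on the FFC diet, used here as a dietary model of metabolic dysfunction-associated steatohepatitis, and all received an adeno-associated virus of serotype 8 (AAV8), which in mouse liver enters mainly hepatocytes. In 3 libraries, numbered 2, 3 and 2600, the labels name an shRNA against S100a11, a calcium-binding S100 protein, with the genotype given as a knockdown. In the other 3, numbered 28, 30 and 31, they name a scrambled shRNA, with the genotype given as control. Strain, sex, age, the promoter and dose of the virus and the time on the diet were not stated in the labels. They also do not say whether each library is a different mouse, and p-values thus reflect only how these samples vary, which may be technical.

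The libraries held 53517387 to 78091845 counts over genes. CPM below are counts relative to library size after edgeR's TMM scaling, which makes up for differences in composition between libraries. S100a11 measured 16.0, 3.55 and 3.41 CPM in libraries 2, 3 and 2600. Its values in 28, 30 and 31 were 15.9, 22.9 and 30.0 CPM. The groups overlapped, and its fitted log2 change of -1.57 ± 0.56 (SE) did not pass the test used below (edgeR adjusted p = 0.095). In the library labelled S100a11 shRNA 2, S100a11 was no lower than in scrambled library 28 (0.698 and 0.693 times the scrambled mean). It was lower than in libraries 30 and 31, and results are given with and without library 2. Hepatocyte transcripts dominated all 6 libraries: albumin, Alb, lay between 18116 and 31083 CPM.

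A dividing cell expresses its genes in waves. In late G1 the E2F transcription factors switch on the replication genes, and cyclin D1 with its kinases frees E2F from the retinoblastoma proteins. Later, in G2, the MuvB complex with B-Myb and FOXM1 switches on the mitosis genes, many of which carry a promoter element called the CHR (cell cycle genes homology region) next to CCAAT boxes bound by NF-Y. Adult hepatocytes rarely divide and many are polyploid, having copied their DNA without completing division. In a diseased liver, macrophages, duct cells, stellate cells and lymphocytes can divide too, and RNA of whole liver pools them all. Fewer cells of a type and less RNA per cell cannot be told apart in such samples.

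These elements were looked for in RefSeq promoters (build GRCm38.p6) of 300 bases, 250 before and 50 after the start of transcription, which the reference used here held for 28 of the 33 members. The CHR was searched as TTTGAA, and the CCAAT box as CCAAT, on both strands. The E2F element was searched likewise in 3 spellings, the first of which was TTCGCGC. The next spelling searched was TTGGCGC and the last one TTCCCGC. E2F matches on opposite strands can overlap each other. The CHR was in the promoters of 12 of 17 G2/M and mitosis members (70.6%) but of 1 of 9 replication members (11.1%), against 17.9% of all 32851 promoters. The E2F element was in 5 of 9 replication promoters (55.6%) and in 4 of 17 of the G2/M and mitosis group (23.5%), against 8.07% of all. Those 4 were 3 of 5 G2/M members (60%) and 1 of 12 mitosis members (8.33%). CCAAT boxes were in 7 of 9 replication promoters and in 15 of 17 of the G2/M and mitosis group, against 37.4% of all. A match is a run of letters and not a shown site of binding.

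The sequences below run from 200 bases before to 20 after the start, with every match to these 3 elements in capitals. They are 4 members that fell in the comparison described next, of which Cenpe has no CHR match in its window, and 2 replication members that did not pass the test. With negative positions before the start of transcription, CHR matches begin at -116 and -98 in Mki67, at -167 and 5 in Ccnb2 and at 9 in Hmmr. E2F matches begin at -164, -152 and -149 in Mcm5 and, within the window, at -109, -106, -46 and -43 in Mcm6. Mki67 also has an E2F match, at -67.
Mki67 (chr7:135716360-135716579, minus strand): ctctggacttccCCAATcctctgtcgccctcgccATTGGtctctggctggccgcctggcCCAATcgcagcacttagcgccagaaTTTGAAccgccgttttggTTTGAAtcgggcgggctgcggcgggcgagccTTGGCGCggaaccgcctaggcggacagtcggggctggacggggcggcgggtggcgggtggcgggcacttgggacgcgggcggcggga
Ccnb2 (chr9:70421535-70421754, minus strand): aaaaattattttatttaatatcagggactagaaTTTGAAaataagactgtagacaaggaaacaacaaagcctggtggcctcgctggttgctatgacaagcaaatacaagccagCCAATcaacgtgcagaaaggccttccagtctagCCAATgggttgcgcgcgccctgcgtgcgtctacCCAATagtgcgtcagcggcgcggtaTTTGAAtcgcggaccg
Hmmr (chr11:40733418-40733637, minus strand): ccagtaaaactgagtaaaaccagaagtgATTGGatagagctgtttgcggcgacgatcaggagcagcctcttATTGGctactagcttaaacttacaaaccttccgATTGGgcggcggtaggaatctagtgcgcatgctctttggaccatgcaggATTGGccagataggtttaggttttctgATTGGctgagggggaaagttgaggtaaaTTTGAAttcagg
Cenpe (chr3:135212363-135212582, plus strand): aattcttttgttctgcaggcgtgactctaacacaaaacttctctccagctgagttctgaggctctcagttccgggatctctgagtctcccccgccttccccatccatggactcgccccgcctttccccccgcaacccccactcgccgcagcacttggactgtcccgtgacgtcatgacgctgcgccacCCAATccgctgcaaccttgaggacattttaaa
Mcm5 (chr8:75109309-75109528, plus strand): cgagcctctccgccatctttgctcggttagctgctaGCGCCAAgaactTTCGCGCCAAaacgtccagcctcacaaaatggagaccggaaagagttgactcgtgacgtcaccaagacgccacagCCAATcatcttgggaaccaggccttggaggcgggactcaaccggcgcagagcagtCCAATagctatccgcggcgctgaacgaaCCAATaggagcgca
Mcm6 (chr1:128359686-128359905, minus strand): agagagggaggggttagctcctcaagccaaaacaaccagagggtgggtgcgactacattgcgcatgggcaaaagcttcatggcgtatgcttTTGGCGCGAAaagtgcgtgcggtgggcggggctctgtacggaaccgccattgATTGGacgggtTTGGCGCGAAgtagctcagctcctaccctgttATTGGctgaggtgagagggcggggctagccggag

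Several genes of mitosis and of its approach fell in the libraries labelled S100a11 shRNA. No replication gene passed the test, but with 14.1% of all tested genes called, 0 of 10 says little by itself. Of the 33 members 6 fell and 0 rose at an edgeR adjusted p under 0.05: Cenpe, Hmmr, Mki67, Bub1b, Plk1 and Ccnb2, by 1.68-fold to 2.93-fold. Over all 19352 tested genes 14.1% passed in either direction, 8.28% fell and 5.82% rose. The falls were 4 of 13 mitosis members and 2 of 7 G2/M members. All 20 genes of these 2 roles had a fitted change below 0 (without library 3, that of Cdk1 was 0.020), with a median log2 change of -0.85 for mitosis and -0.80 for G2/M, against 0.04 over all tested genes. Among the 10 replication members 0 were called in either direction (0 also had an unadjusted p under 0.05), and the median was 0.23. DESeq2 and limma voom likewise called 0 of the 10. Over all members 7 fell with limma voom (8.35% of all genes) and 9 with edgeR on library totals alone (20.5%). Scaling by library totals moved the median of all genes from 0.04 to -0.32. Relative to that median, replication members stood at 0.19 with TMM and 0.20 with library totals, and mitosis members at -0.89 and -0.86. Among the 17 G2/M and mitosis members with a promoter, the median log2 change was -0.80 for 12 with a CHR and -1.01 for 5 without. It was -1.37 for 4 with an E2F match and -0.75 for 13 without. A link between these elements and the changes was not tested.

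**Figure D1:**
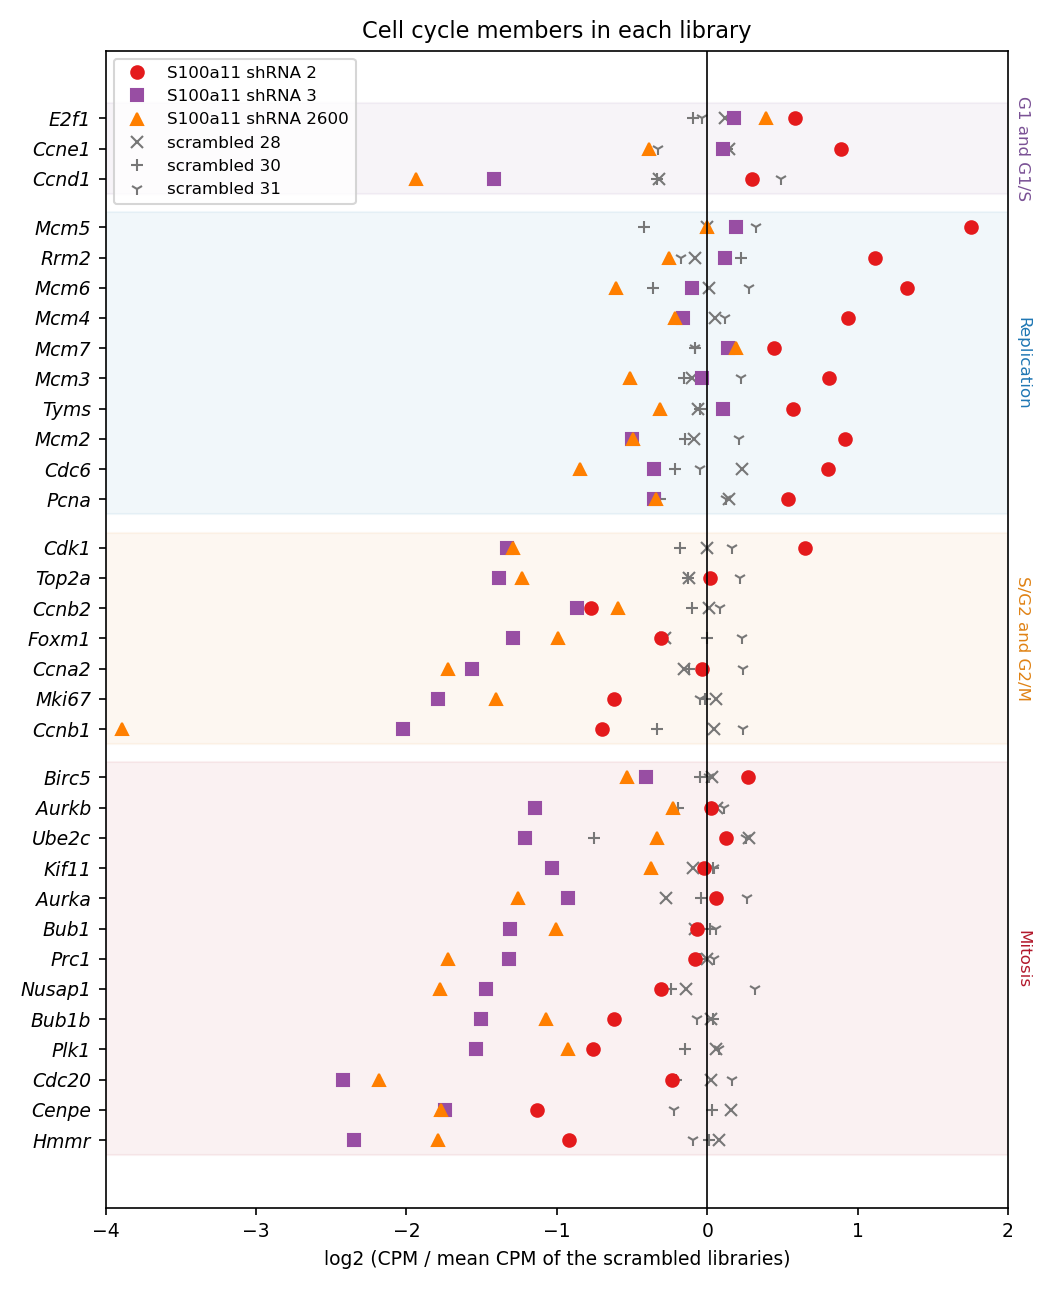
Each row is a member and each symbol a library: the log2 ratio of its CPM to the mean of the 3 scrambled libraries, with libraries labelled S100a11 shRNA in colour and scrambled libraries in grey. Library 2 lies to the right of every scrambled library for all 10 replication members, whereas libraries 3 and 2600 lie to the left of every scrambled library for 13 and 12 of the 13 mitosis members. Libraries 3 and 2600 also lie to the left for 3 and 8 of the 10 replication members. No share over all tested genes was worked out for single libraries.

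Levels differed widely among members, and all but 4 lay below the median gene. Per kilobase of gene length, the mean of the scrambled libraries was highest for Ccnd1, at 20.4 CPM per kb, followed by Pcna at 7.18, Mki67 at 4.85 and Mcm7 at 4.29. The median over all tested genes was 3.58 CPM per kb. Cdc6, the loader of the replicative helicase, was lowest of the members at 0.203 CPM per kb, and 8.21% of tested genes lay lower still. Raw counts of a member in a library ran from 5 to 9490, with a median of 273.

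The steepest falls among called members were in Hmmr and Cenpe. Cenpe, the kinesin that moves chromosomes to the spindle equator (chromosome 3, 135212563 to 135273540, plus strand, mm10), stood at 4.97, 3.24 and 3.18 CPM in libraries 2, 3 and 2600 and at 12.2, 11.1 and 9.34 CPM in scrambled libraries 28, 30 and 31. Every library labelled S100a11 shRNA was below every scrambled one, including library 2. The fold was 2.85-fold lower (log2 change -1.51 ± 0.22, SE, edgeR adjusted p = 0.0059). Hmmr, a spindle-associated hyaluronan receptor (chromosome 11, 40701395 to 40733422, minus strand), stood at 2.42, 0.895 and 1.32 CPM against 4.82, 4.59 and 4.28 CPM. It was 2.93-fold lower (log2 change -1.55 ± 0.33, edgeR adjusted p = 0.018), with library 2 the highest of its group and still below the scrambled libraries.

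Mki67, the proliferation marker Ki-67 that coats mitotic chromosomes (chromosome 7, 135689788 to 135716379, minus strand), stood at 31.8, 14.1 and 18.4 CPM against 50.9, 48.3 and 47.3 CPM. The scrambled mean was 48.8 ± 1.85 CPM (SD, n = 3) and that of the others 21.4 ± 9.21 CPM (n = 3), with no overlap, 2.28-fold lower (edgeR adjusted p = 0.021). Bub1b, the checkpoint kinase BubR1 (chromosome 2, 118598211 to 118641591, plus strand), stood at 3.30, 1.79 and 2.41 CPM against 5.16, 5.22 and 4.84 CPM, 2.02-fold lower (edgeR adjusted p = 0.027). Plk1, the kinase that drives mitotic entry and spindle assembly (chromosome 7, 122159437 to 122169875, plus strand), stood at 1.86, 1.09 and 1.66 CPM against 3.28, 2.85 and 3.33 CPM, 2.06-fold lower (edgeR adjusted p = 0.028). For both genes the groups did not overlap.

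Ccnb2, one of the B-type cyclins that activate Cdk1 (chromosome 9, 70407689 to 70421554, minus strand), was lower to a like degree in all 3 libraries. It stood at 2.03, 1.902 and 2.30 CPM against 3.49, 3.23 and 3.68 CPM, 1.68-fold lower (edgeR adjusted p = 0.039). Its partner gene Ccnb1 had a larger fitted change that did not pass, -1.62 ± 0.51 (edgeR adjusted p = 0.068), from 1.04, 0.416 and 0.114 CPM against 1.74, 1.34 and 1.99 CPM. The value of library 2600 rests on 5 counts (95% Poisson interval 1.62 to 11.7, counting error only).

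The other G2/M members gave the same sign without passing the test. Foxm1, the transcription factor of the late wave, stood at 3.98, 2.01 and 2.48 CPM against 4.07, 4.94 and 5.80 CPM (log2 change -0.80, edgeR adjusted p = 0.091). Top2a, the topoisomerase that untangles sister chromosomes, stood at 15.1, 5.72 and 6.37 CPM against 13.7, 13.7 and 17.4 CPM, so library 2 lay among the scrambled libraries (edgeR adjusted p = 0.20). Cdk1, the mitotic kinase, was split further: 4.72 CPM in library 2, above every scrambled library (2.66 to 3.37 CPM), and 1.20 and 1.23 CPM in libraries 3 and 2600 (edgeR adjusted p = 0.71). Ccna2, the cyclin of S phase and G2, stood at 3.38, 1.17 and 1.05 CPM against 3.11, 3.18 and 4.08 CPM (edgeR adjusted p = 0.20).

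Of the 9 mitosis members that did not pass, Cdc20 had the largest fitted change. This activator of the anaphase-promoting complex stood at 2.54, 0.559 and 0.659 CPM against 3.05, 2.59 and 3.35 CPM (log2 change -1.23, edgeR adjusted p = 0.135). Nusap1, a spindle microtubule protein, and Prc1, which bundles the central spindle, had changes of -1.01 and -0.85 (edgeR adjusted p = 0.11 and 0.16). The groups of Cdc20, Nusap1 and Prc1 did not overlap. The remaining 6 were Bub1 at -0.68, Aurka at -0.58, Kif11 at -0.42, Ube2c at -0.38, Aurkb at -0.37 and Birc5 at -0.17. Survivin, encoded by Birc5, stood at 3.36, 2.11 and 1.93 CPM against 2.85, 2.70 and 2.82 CPM. In all, 7 of 13 mitosis and 4 of 7 G2/M members had libraries labelled S100a11 shRNA wholly below the scrambled ones, against 18.1% of all tested genes.

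**Figure D2:**
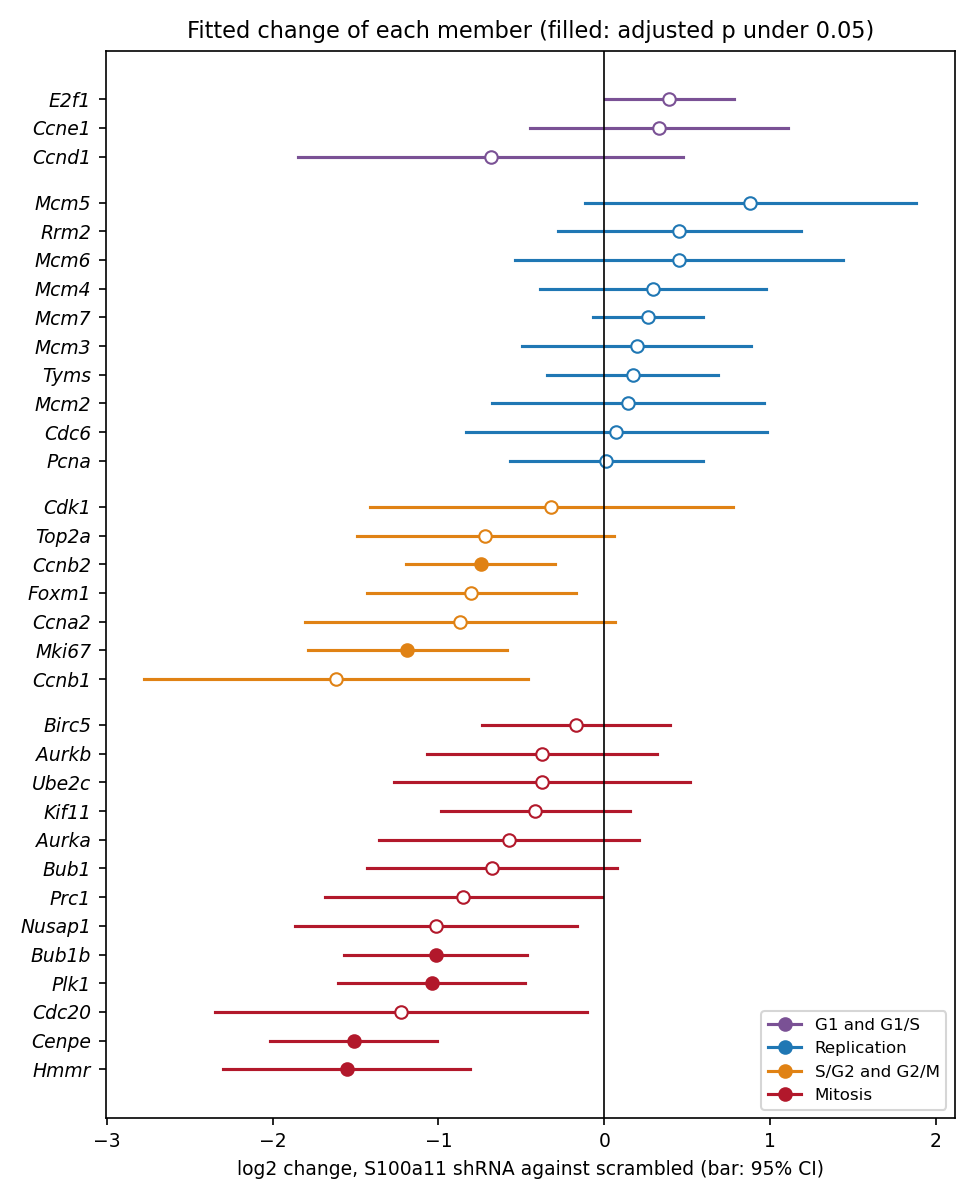
Fitted log2 change of each member with its 95% confidence interval, coloured by role, with filled circles for an edgeR adjusted p under 0.05. All 20 G2/M and mitosis points lie left of 0, and every replication interval includes 0.

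Replication genes were highest in library 2, and the groups overlapped for all 10. The MCM proteins form the ring-shaped helicase that unwinds DNA at the fork. Mcm5 stood at 15.1, 5.11 and 4.48 CPM in libraries 2, 3 and 2600 against 4.47, 3.36 and 5.62 CPM, and Mcm6 at 20.7, 7.67 and 5.41 CPM against 8.31, 6.42 and 10.001 CPM. Library 2 was above all others for both genes. Libraries 3 and 2600 were within the scrambled range, except library 2600 for Mcm6, which was below it. Mcm2 stood at 15.8, 5.95 and 5.96 CPM against 7.91, 7.59 and 9.71 CPM, with library 2 above and the other 2 below the scrambled libraries. Mcm3 and Mcm4 stood at 16.3 and 13.9 CPM in library 2 and at 6.28 to 10.9 CPM in the other 5. Mcm7 varied least among the subunits, at 25.8, 20.9 and 21.7 CPM against 21.1, 17.9 and 17.9 CPM.

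The replication members outside the helicase were also highest in library 2. Pcna, the sliding clamp of the DNA polymerases, stood at 24.99, 13.5 and 13.6 CPM against 19.0, 13.9 and 18.8 CPM, a fitted change of 0.01 with a 95% confidence interval of -0.57 to 0.59. Rrm2, the small subunit of ribonucleotide reductase, stood at 16.0, 8.02 and 6.18 CPM against 6.56 to 8.62 CPM. Tyms, which makes thymidylate, had a fitted change of 0.17 and Cdc6 of 0.07. The intervals of the 10 genes reached from -0.84 for Cdc6 to 1.88 for Mcm5, and each included 0. With TMM all 10 fitted changes were above 0, but 7 of them (Cdc6, Mcm2, Mcm3, Mcm4, Mcm7, Pcna and Tyms) were below 0 with library totals alone, and 8 without library 2.

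Entry genes followed neither pattern as a set. E2f1, the factor that drives the replication wave, stood at 10.1, 7.59 and 8.82 CPM against 7.30, 6.29 and 6.57 CPM. Its groups did not overlap, as for 16.5% of all tested genes in this direction, but the change of 0.39 ± 0.17 did not pass (edgeR adjusted p = 0.16). Ccne1, the cyclin that starts S phase, stood at 2.09, 1.21 and 0.864 CPM against 1.25, 1.24 and 0.901 CPM. Ccnd1, the growth-factor-responsive cyclin and the most abundant member per kilobase, stood at 96.0, 29.2 and 20.4 CPM against 62.7, 62.0 and 109.6 CPM. Libraries 3 and 2600 were below every scrambled library for Ccnd1 and library 2 was within their range (edgeR adjusted p = 0.41).

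The balance of mitosis to replication transcripts within a library was lower in each library labelled S100a11 shRNA, library 2 included. The summed CPM of the 13 mitosis members divided by that of the 10 replication members was 0.243, 0.224 and 0.3003 in libraries 2, 3 and 2600. In scrambled libraries 28, 30 and 31 it was 0.565, 0.612 and 0.533. This ratio does not depend on the scaling between libraries. Taken gene by gene as a ratio to the scrambled mean, the mitosis median minus the replication median was -0.94, -1.25 and -0.75 on the log2 scale in the first 3 libraries. In the scrambled libraries, which set the reference, it was 0.02, 0.13 and -0.07. The members were chosen with earlier results known, so no test was made on these sums and medians.

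The libraries reached this lower balance at different levels. In library 2 all 10 replication members stood above every scrambled library, with a median of 1.82 times the scrambled mean, while the mitosis median was 0.944 times. Individually, 7 of 13 mitosis members of library 2 were below every scrambled library and 1, Birc5, was above. The share of all tested genes beyond every scrambled library was worked out for whole groups only. Counts for a single library thus have no background and are a description. In libraries 3 and 2600 the replication medians were 0.953 and 0.797 times the scrambled mean and the mitosis medians 0.401 and 0.475 times. Of the 10 replication members, 3 in library 3 and 8 in library 2600 were below every scrambled library, and 1 in each was above.

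**Figure D3:**
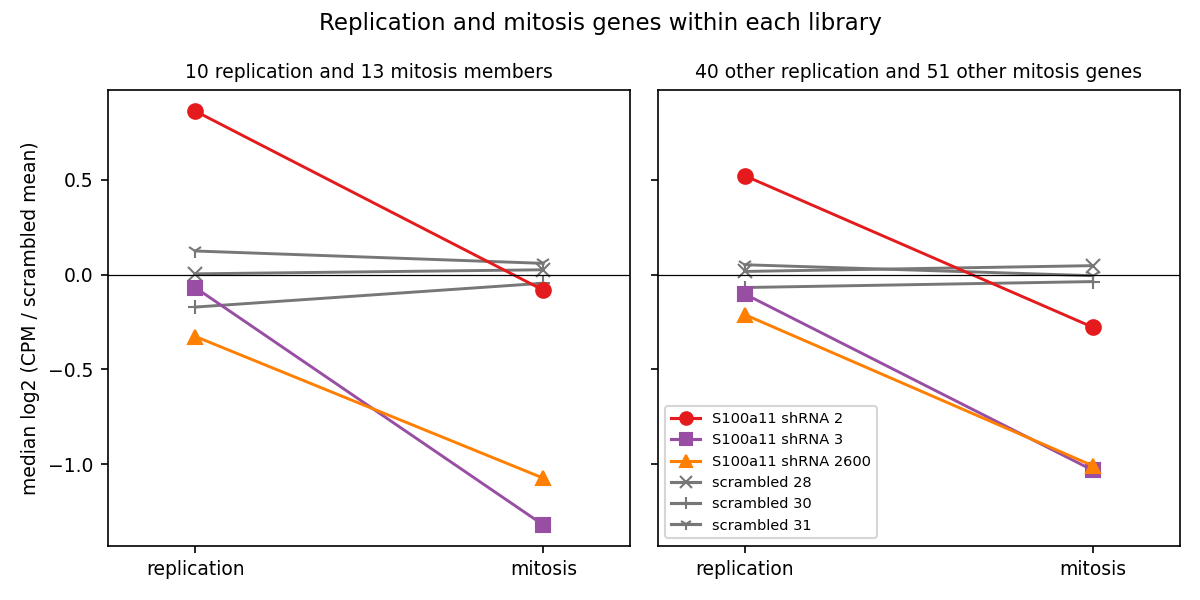
Each line is a library and joins the median log2 ratio to the scrambled mean over replication genes with that over mitosis genes, for the members (left) and for other genes of the same 2 processes (right). The 3 coloured lines of libraries labelled S100a11 shRNA descend from replication to mitosis, by 0.75 to 1.25 in the left panel, and the grey scrambled lines lie between -0.17 and 0.12 there.

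Calls among the members depended on which libraries entered. Without library 2, whose S100a11 was within the scrambled range, 17 members fell (12.0% of all tested genes fell in that comparison). They were 7 of 7 G2/M, 9 of 13 mitosis, 1 of 3 G1 and 0 of 10 replication members. Medians were then -1.35 for G2/M, -1.25 for mitosis and -0.25 for replication. When library 3, 28, 30 or 31 was left out 1 member fell (2.96%, 5.18%, 2.54% and 3.47% of all genes fell), and without library 2600, 2 fell (6.29% of all). Cenpe kept its call in each of these (edgeR adjusted p of 0.00083 to 0.033), Ccnb2 lost it without 3, 28, 30 or 31 (adjusted p up to 0.14), and Mki67, Bub1b, Plk1 and Hmmr lost it on leaving out any single library other than 2 (up to 0.10).

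The same 2 processes were examined in other genes of the pathway. Of 40 further replication genes 0 fell and 1 rose, with a median log2 change of 0.10. Of 51 further mitosis genes 11 fell and 0 rose, with a median of -0.73, and 46 had a change below 0. Over all tested genes 8.28% fell and 5.82% rose. By library, the median over other mitosis genes minus that over other replication genes was -0.80, -0.93 and -0.80 in libraries 2, 3 and 2600. Without library 2, 32 other mitosis genes fell and 1 rose, and 2 other replication genes fell and 1 rose. In that comparison 12.0% of all tested genes fell.

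Cenpf, a kinetochore protein, led the further mitosis genes. It stood at 6.61, 3.08 and 3.71 CPM against 15.8, 13.7 and 13.9 CPM, with no overlap (log2 change -1.69, edgeR adjusted p = 0.0077, and called whichever library was left out). Anln, the anillin of the cleavage furrow, fell by 1.20 on the log2 scale (edgeR adjusted p = 0.012) and the cytokinesis kinesin Kif14 fell by 1.30 (adjusted p = 0.016). Aspm, a spindle pole protein, fell by 0.90 (adjusted p = 0.021) and Troap, a microtubule-associated protein, fell by 1.27 (adjusted p = 0.021). None of these last 4 passed without library 3 or without 30, nor did Kif14 without 28, or Aspm and Troap without 28 or 31 (edgeR adjusted p up to 0.097).

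**Figure D4:**
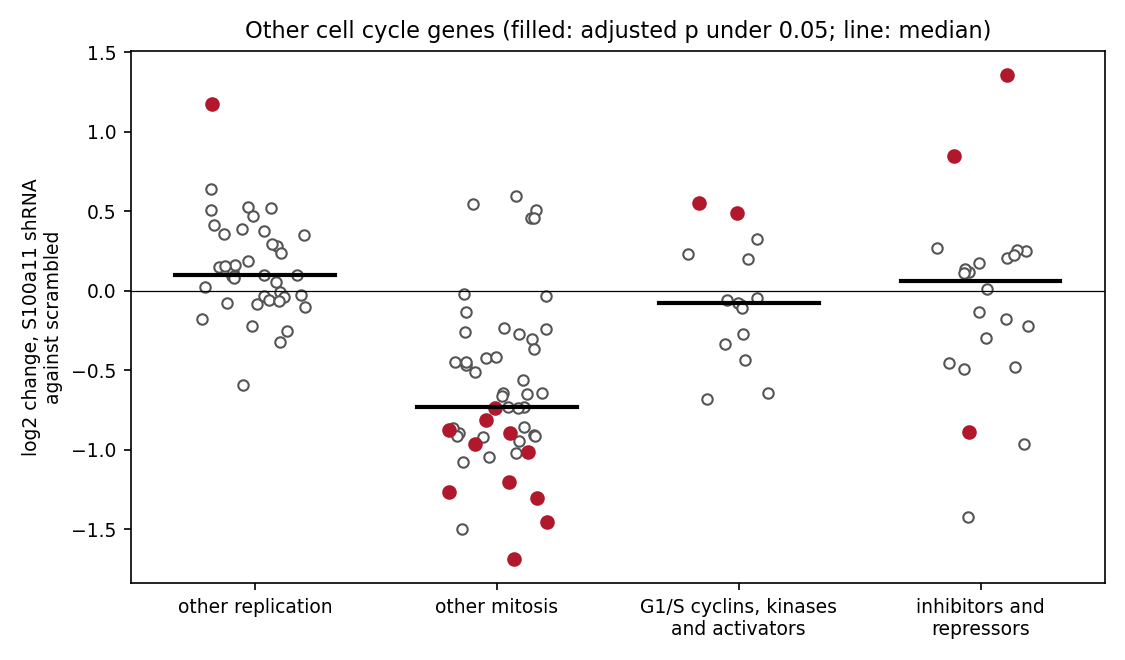
Fitted log2 change of other cell cycle genes in 4 lists, filled where the edgeR adjusted p is under 0.05, with a line at the list's median. The mitosis list lies mostly below 0 (median -0.73) and the replication list around 0.10.

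The one further replication gene that rose was Mcm10, an initiation factor that helps activate the MCM helicase. It stood at 50.7, 89.8 and 40.8 CPM against 27.7, 24.9 and 27.6 CPM (log2 change 1.18, edgeR adjusted p = 0.022). It did not pass with library totals alone (adjusted p = 0.056) or without scrambled library 28, 30 or 31 (up to 0.093). Its order over libraries, highest in library 3, was not that of Mcm2 to Mcm7, which were highest in library 2.

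Among 22 tested inhibitors and repressors 2 rose and 1 fell, a share close to the 14.1% called over all tested genes, so the count says nothing particular of the list. The same holds for the 2 calls among 15 G1/S genes given below, and the values of single genes follow as a description. E2f8, an atypical E2F that represses E2F targets and promotes hepatocyte polyploidy, stood at 25.4, 19.4 and 30.2 CPM against 6.14, 10.8 and 12.3 CPM, 2.56-fold higher (edgeR adjusted p = 0.014, or 0.053 without scrambled library 30). The antisense gene Gm2788 shares 11.2% of its exon bases and held 1.66 times its counts. Wee1, the kinase that holds Cdk1 inactive, stood at 17.0, 15.4 and 11.2 CPM against 7.46, 6.71 and 10.02 CPM (adjusted p = 0.034, or 0.15 with library totals alone and up to 0.14 without library 3, 28 or 30). Cdkn1c, the imprinted inhibitor p57, fell by 0.89 (adjusted p = 0.044, up to 0.15 on leaving out any single library other than 2). Of 15 G1/S cyclins, kinases and activators, 2 rose: the E2F partners Tfdp1 and Tfdp2, by 0.55 and 0.49 on the log2 scale (adjusted p = 0.039 and 0.035). With library totals alone Tfdp1 and Tfdp2 did not pass (adjusted p = 0.36 and 0.54), nor with upper-quartile factors (0.067 and 0.063) or without the filter on low counts (0.051 and 0.060). They also did not pass on leaving out any single library other than 2 (up to 0.16).

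Histone genes gave few calls. Most are of the replication-dependent kind, whose transcripts lack poly(A) tails but can be read in total RNA, and the list also holds replacement histones such as H1f0. The median log2 change of the 57 tested was -0.22, and 2 fell and 0 rose, against 8.28% and 5.82% of all tested genes. Hist1h2bn and Hist1h4j were the 2, with changes of -1.07 and -0.86 (edgeR adjusted p = 0.048 and 0.049), and neither passed on leaving out any single library other than 2 (adjusted p up to 0.17). Hist1h2bn also did not pass with limma voom or edgeR's legacy quasi-likelihood (adjusted p = 0.051 and 0.052). Hist1h4j did not with RLE factors, without the filter or with the legacy quasi-likelihood (0.051, 0.055 and 0.055). Copies of these genes are near-identical, and the split of reads between them is uncertain.

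Summed markers of some other liver cells, such as duct and stellate cells, differed between the groups without overlap. Those of macrophages, endothelial cells, T and NK cells and neutrophils overlapped. Of 8 duct cell markers 7 fell, and their summed level was 122 to 140 CPM in the libraries labelled S100a11 shRNA against 467 to 575 CPM in the scrambled libraries. Of 10 macrophage markers 6 fell (267 to 583 against 580 to 862 CPM), and of 9 stellate cell markers 7 fell (245 to 502 against 677 to 998 CPM). Of 8 endothelial markers 1 rose and 1 fell, and of 8 tested T and NK cell markers 0 were called by edgeR (3 at an unadjusted p under 0.05). Of 8 hepatocyte markers 2 rose, and all 8 fitted changes were above 0. Hepatocyte markers summed to 35588 to 46088 CPM in the libraries labelled S100a11 shRNA against 27886 to 34011 CPM, also without overlap. B and plasma cell markers summed to 14.5 to 17.9 against 29.4 to 61.2 CPM, with 1 of 7 falling, neutrophil markers to 0.767 to 1.84 against 1.80 to 3.89 CPM, with 2 of 5 tested falling, and erythroid markers to 80.1 to 94.8 against 52.0 to 57.7 CPM, with 2 of 5 tested rising. Over all tested genes 8.28% fell and 5.82% rose. No marker was at 0 in every library. The part of these cells in the fall of the mitosis genes was not tested. Library 2, where the replication members were highest, also differed from libraries 3 and 2600 in some of these sums. Its stellate cell sum was 502 CPM against 285 and 245 CPM, and its hepatocyte sum 46088 against 39271 and 35588 CPM. Its duct cell sum was 140 against 122 and 140 CPM. The part of these differences in its replication values was not tested either.

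Some members share exons with other genes. Ccna2, Cdc20, Mcm7 and Prc1 overlap genes on the opposite strand with a count more than 0.5 times their own (Exosc9, Elovl1, Ap4m1 with Cops6, and Rccd1). The labels do not say whether counting used strand, so their values are uncertain. None of the 6 members that fell is among them, and without these 4 the mitosis median was -0.68 and the replication median 0.20.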

How the data were processed

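Liver RNA was measured in 6 mouse samples, 3 per group by the labels. Per the labels' protocols, ribosomal RNA was removed and stranded libraries of total RNA were made. Each value is a raw gene count as deposited by the authors, on build mm10 per the submitters' processing notes. No source used here names the aligner, the counter or how strand was handled. Gene lengths are as deposited in the authors' table. Columns of other samples numbered 0.

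The analysis used edgeR 4.0.16 in R 4.3.3. Its filterByExpr (minimum count 10, minimum total 15) left 19352 genes, TMM factors were applied, and glmQLFit (newer quasi-likelihood) with glmQLFTest compared the groups, with p-values adjusted by Benjamini-Hochberg over the 19352 genes and called under 0.05. Common dispersion gave a coefficient of variation of 0.223. Standard errors and 95% intervals come from the F statistic. The procedure was tested on simulated data. No 2 libraries were alike within sampling noise: chi-square per gene was 48.4 or more. For library 2 it was 235 and 349 against libraries 3 and 2600, and 193, 223 and 158 against scrambled libraries 28, 30 and 31. By this measure library 2 was nearer to each scrambled library than to its own group. Symbols, strands and exons come from GENCODE M21 by gene ID. Of the listed names 5 were matched that way.

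All 33 members are named. Of each other list up to 5 called genes with the smallest p are named, and up to 3 histone genes. Members and lists were chosen with earlier results of these data known. Alternatives were RLE, upper-quartile and library-total scaling, 2 other filters, DESeq2 1.42.0, limma 3.58.1 voom, a threshold of 0.1 and leaving out each library. The legacy quasi-likelihood and leaving out overlapping members were added after seeing the data. Figures used python 3.11.15 and matplotlib 3.10.9.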

Additional observations from a re-analysis of the deposited data

How the results depend on the processing

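No paired analysis was possible because the groups share no replicate number. Of 462 values of the 33 members under their alternatives, 396 kept their direction and side of the threshold, 17 newly passed, 24 no longer passed and 25 changed sign. The mitosis minus replication difference of -1.08 was -1.18 with limma voom, -0.87 without the 4 overlapping members and -1.11 to -0.98 with a library left out. The mitosis median was -0.94 with upper-quartile factors, -1.18 with library totals, -0.996 with limma voom, -0.68 without the overlapping members and -1.25 to -0.57 with a library left out. The replication median was -0.11 with library totals and -0.25 to 0.41 with a library left out. With a library left out 1 to 17 members fell, and with DESeq2 8 fell, where 2132 of all 19352 genes fell.

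Over all genes 2728 were called, and 4367 with library totals (397 higher and 3970 lower, against 1126 and 1602), 4206 at an adjusted p under 0.1 and 724 to 4176 with a library left out, the lowest without scrambled library 30. Of the other mitosis genes 11 fell, and 26 with library totals, 20 with DESeq2 (against the same 2132 of 19352), 23 at an adjusted p under 0.1 and 1 to 32 with a library left out. Of the other replication genes 0 to 3 were called with a library left out.

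Signs changed with library totals for Ccne1 (-0.011), Cdc6 (-0.26), Mcm2 (-0.19), Mcm3 (-0.14), Mcm4 (-0.041), Mcm7 (-0.089), Pcna (-0.32) and Tyms (-0.17). They changed for Cdc6 (-0.021) and Pcna (-0.081) with upper-quartile factors, for Cdc6 (-0.060) and Pcna (-0.026) with limma voom, and for Pcna (-0.016) with the 1 CPM filter. With a library left out the ranges were -0.12 to 0.55 for Ccne1, -0.59 to 0.34 for Cdc6, -0.53 to 0.39 for Mcm2, -0.28 to 0.44 for Mcm3 and -0.22 to 0.49 for Mcm4. They were -0.36 to 0.78 for Mcm6, -0.38 to 0.17 for Pcna, -0.088 to 0.70 for Rrm2, -0.12 to 0.35 for Tyms and -1.35 to 0.020 for Cdk1. The cause of these shifts was not tested. With 5 counts at the lowest, depth limits the precision of the scarcest members, and 3 libraries per group limit all of them.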
